A study of Mus musculus with 54 samples.

Results

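The genes described here are 40 members of the integrated stress response and the unfolded protein response. They are the rows of the deposited count table whose gene name is on a fixed list, out of 24421 genes. By role they are 6 transcription factors, 14 ATF4 targets, 4 eIF2α kinases, 3 genes of ER stress sensing and 13 ER chaperones and quality control genes. The 3 are the sensors Ern1 and Atf6 and the downstream factor Xbp1. All 40 passed the filter on low counts, as did 14320 genes in all. The study measured RNA by sequencing in hematopoietic stem cells (HSC) of mice given dmPGE2, a prostaglandin E2 derivative that is broken down slowly, before radiation. The mice were of C57BL/6 background and all, controls included, carried the green protein ZsGreen as a reporter of Fgd5. HSC were sorted from bone marrow by SLAM-LSK surface markers and that reporter. All mice, of both sexes, received an injection under the skin, of dmPGE2 or of ethanol vehicle in saline, 30 min before radiation or its omission. Irradiated dmPGE2 mice (8.53 Gy) gave 8 libraries at 1 h and 8 at 24 h, and irradiated vehicle mice gave 8 at 1 h and 8 at 24 h. Mice given dmPGE2 without radiation gave 7 libraries at 1 h. Mice given vehicle without radiation, called untreated here, are represented by 15 columns pooled as 1 group.

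The integrated stress response begins when 1 of the kinases PERK (Eif2ak3), GCN2 (Eif2ak4), PKR (Eif2ak2) or HRI (Eif2ak1) phosphorylates the translation factor eIF2α, which slows protein synthesis while ATF4 is translated more. ATF4 then acts with C/EBP partners on genes of amino acid uptake and synthesis, on Ddit3 (CHOP) and Trib3, and on Ppp1r15a (GADD34), which brings a phosphatase back to eIF2α. The unfolded protein response senses unfolded proteins in the endoplasmic reticulum (ER) through PERK, IRE1α (Ern1, which splices Xbp1 mRNA) and ATF6, and XBP1 and ATF6 act on chaperones such as Hspa5 (BiP) and on genes of ER-associated degradation such as Herpud1. ATF4 output is set largely by translation and XBP1 by splicing, neither of which a gene count shows.

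Promoters were searched for elements through which these branches are known to act, and the stretches around the matches are shown for members described in most detail. They come from RefSeq (GRCm38.p6), in windows of 250 bases before to 50 bases after each start site. Of the 40 members, 36 have a window. Both strands were searched for the C/EBP-ATF element TGATGNAA, the ER stress element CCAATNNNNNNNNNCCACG, the second ER stress element ATTGGNCCACG, the cAMP response element TGACGTCA and its shorter form TGACG. The last of these lies within TGACGTCA, and both ER stress elements end in CCACG. Capitals mark TGACG in Cebpb, TGACGTCA in Ppp1r15a, and the C/EBP-ATF and ER stress elements in the other genes, where any TGACG stays in lower case. Each stretch is written 5′ to 3′ on the strand of its gene.
Cebpb (chr2:167688715-167688914, plus strand): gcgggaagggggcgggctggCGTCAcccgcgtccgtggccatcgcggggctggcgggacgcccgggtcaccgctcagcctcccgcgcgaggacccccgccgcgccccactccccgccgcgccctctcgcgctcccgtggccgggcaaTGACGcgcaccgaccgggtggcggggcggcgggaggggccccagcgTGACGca
Ppp1r15a (chr7:45526269-45526300, minus strand): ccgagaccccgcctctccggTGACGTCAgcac
Nupr1 (chr7:126625553-126625600, minus strand): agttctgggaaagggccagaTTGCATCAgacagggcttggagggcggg
Trib3 (chr2:152344039-152344066, minus strand): agcagcagattagctcaggtTTACATCA
Slc7a11 (chr3:50443633-50443699, minus strand): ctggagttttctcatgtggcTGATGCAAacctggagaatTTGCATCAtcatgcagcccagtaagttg
Vldlr (chr19:27216800-27216847, plus strand): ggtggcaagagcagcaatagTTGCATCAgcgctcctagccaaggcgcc
Herpud1 (chr8:94386297-94386407, plus strand): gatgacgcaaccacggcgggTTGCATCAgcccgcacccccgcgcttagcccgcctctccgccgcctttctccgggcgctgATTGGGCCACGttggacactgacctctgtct
Hspa5 (chr2:34772005-34772063, plus strand): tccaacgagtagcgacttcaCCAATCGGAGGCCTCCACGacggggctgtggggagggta
Calr (chr8:84847055-84847113, minus strand): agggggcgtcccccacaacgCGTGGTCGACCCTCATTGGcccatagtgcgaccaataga

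Herpud1 held both kinds of element, a C/EBP-ATF match 112 bases before its RefSeq start and the second ER stress element 52 bases before it. Slc7a11 held 2 C/EBP-ATF matches, 66 and 47 bases before its start, and the Trib3 match lay 14 bases after the start. The ER stress element was present in 6 of the 11 ER genes with a window, Hspa5, Hsp90b1, Pdia6, Calr, Canx and Creld2, against 0.137% of all 27025 genes with a window. The C/EBP-ATF element was present in 5 of 13 ATF4 targets with a window, Trib3, Asns, Chac1, Slc7a11 and Vldlr, and in 4.51% of all genes. The second ER stress element was found in 0.0444% of all genes. The full cAMP response element of Ppp1r15a was shared with 2.03% of all genes, and the short form, which Cebpb held at 3 places, with 23% of all genes. A match describes letters and does not show binding.

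Several libraries stood apart before any gene was compared. Libraries 5 to 7 of irradiated dmPGE2 mice at 24 h, from males, had values of -71.7 to -39.3 on the second principal component, against -26.9 to 34.3 in the other 51 libraries. The 15 untreated columns consist of 2 sets by their header numbers, 8 (S42 to S70) and 7 (S79 to S85), and the second set repeats tags of the first. Each of these 7 columns was closest to the column of its own tag, with correlations of residuals from 0.41 to 0.72 against at most 0.34 for other pairs. Whether they come from the same mouse or RNA was not tested. Counts of Xist and Y-linked genes gave 10 male and 5 female columns, where the labels give 8 males and 7 females. The labels list 8 such samples at 1 h and 7 at 24 h, and the columns do not name the time. P-values against untreated HSC may therefore be too small. All untreated columns and 1 h libraries carry tags of the form 5-1. The 24 h libraries carry tags such as F-6-16 or M-7-6, and none of these is shared with the others. Differences of 24 h libraries from untreated columns or 1 h libraries therefore cannot be told apart from differences between these tags. Comparisons with each set alone and with columns of 1 tag summed are given beside the values of single genes that they end. Total counts ran from 15049364 to 26217041 per library. The 9 HSC markers used, such as Kit and Procr, summed to 2085 CPM or more in every library, and B cell markers to at most 16.9 CPM. Stromal and endothelial markers reached 263 CPM in irradiated dmPGE2 HSC at 24 h (median 69.6 CPM), against at most 102 CPM in the other groups. The highest Col1a1 value of any library was 203 CPM, and the part of stromal markers in the results was not tested. Plasma cell markers, mainly Jchain, summed to 236 to 366 CPM in 4 libraries (irradiated dmPGE2 at 1 h 1 and 5, dmPGE2 without radiation 4, irradiated vehicle at 24 h 1), against at most 131 CPM in the others. Their part in the results was not tested, but counts without these 4 libraries are given.

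At 1 h after radiation, HSC of dmPGE2 mice had more mRNA of the factor Cebpb and of the amino acid carriers Slc7a11 and Slc3a2 than HSC of irradiated vehicle mice. They had less of the ER genes Herpud1 and Dnajb9. Of the 40 members, 4 rose (Cebpb, Nupr1, Slc7a11 and Slc3a2), where 7.04% of all genes tested rose. Another 5 fell (Ddit3, Cebpg, Eif2ak3, Dnajb9 and Herpud1), where 7.77% of all genes fell. The median log2 fold change over the members was 0.09, and over all genes tested 0.01. With mice paired by tag, as described with the processing, 6 members rose, adding Sdf2l1 and Manf, and 6 fell, adding Hspa5. The share of all genes called in that fit was not counted. Calls here and below are adjusted p-values under 0.05 from edgeR's quasi-likelihood test with Benjamini-Hochberg adjustment over all genes tested.

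At 24 h, of the 40 members, 12 rose with dmPGE2 in irradiated HSC, where 12.4% of all genes rose, and 3 fell, where 11.5% of all genes fell. Of the 6 transcription factors, 5 were higher, and 2 without male libraries 5 to 7. Of the ATF4 targets, 4 were higher and 3 lower, and without these libraries 5 were higher and 0 lower. The lower ones were Psat1, Phgdh and Mthfd2. Radiation with vehicle at 1 h raised 9 members, where 8.65% of all genes rose, and lowered 2, where 7.31% of all genes fell. With mice paired by tag, 3 ATF4 targets were higher and 3 lower in that comparison, against 1 higher and 1 lower without pairing. The pairing added Slc3a2 and Slc7a5 as higher and Psat1 and Phgdh as lower. At 24 h it raised 15, where 23.3% of all genes tested were higher, and lowered 10, where 26.5% of all genes were lower. Without radiation dmPGE2 raised 5 members, where 5.28% of all genes rose, and lowered 6, where 5.82% of all genes fell. With mice paired by tag it lowered 10, adding Ddit3, Nupr1, Canx and Calr, and radiation with vehicle at 1 h lowered 4. The shares of all genes called in the paired fits and without male libraries 5 to 7 were not counted. Paired fits against untreated HSC held both sets of untreated columns, so their p-values may be too small.

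**Figure D1:**
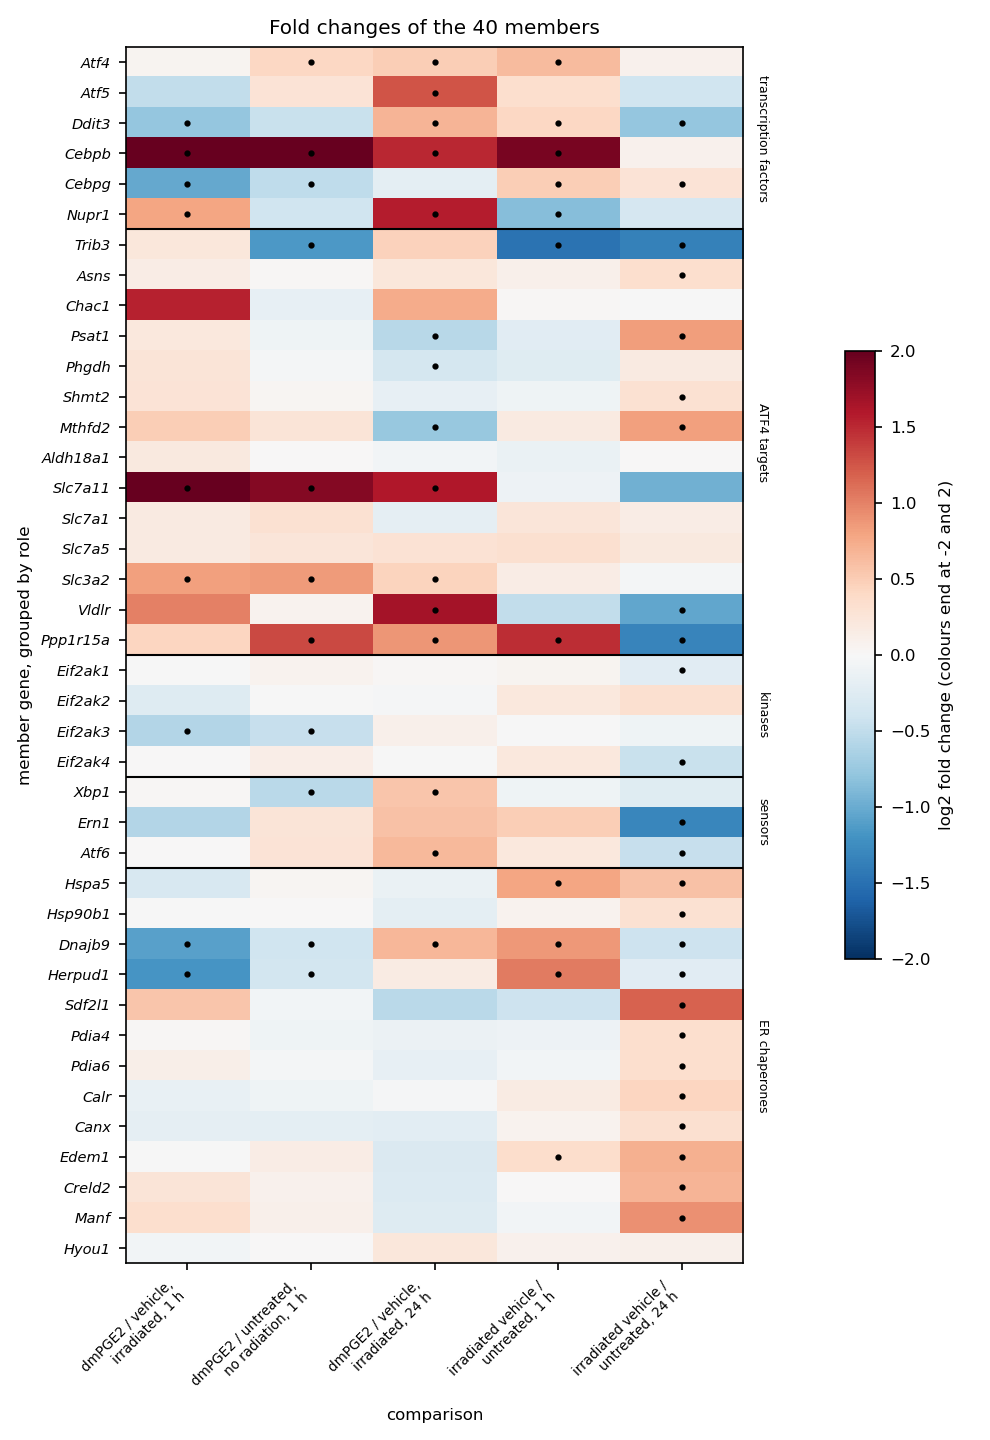
Log2 fold change of each of the 40 members (rows, grouped by role) in 5 comparisons (columns), with a dot where the adjusted p was under 0.05. Cebpb was called in 4 of the 5 columns, Herpud1 was lower with dmPGE2 and higher with radiation at 1 h, and 10 of the 13 ER chaperones and quality control genes were higher at 24 h after radiation with vehicle.

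Among the transcription factors Cebpb had the largest fold change for dmPGE2 at 1 h. C/EBPβ is a leucine zipper factor of emergency granulocyte formation and a known target of cAMP signalling. Its gene lies at chr2:167688915-167690432 on mm10. Its libraries ran from 204 to 1842 CPM (median 1134) in irradiated dmPGE2 HSC at 1 h, against 17.98 to 385 CPM (median 122) in irradiated vehicle HSC. The lowest dmPGE2 library lay within the vehicle range, so the groups overlapped (log2 fold change 2.67, SE 0.43, adjusted p = 5.83e-06). Without radiation, dmPGE2 HSC had 432 to 981 CPM (median 653), against 13.96 to 119 CPM (median 40.9) in untreated HSC, with no overlap (log2 fold change 3.95, SE 0.36, adjusted p = 4.74e-12). Radiation alone also raised Cebpb at 1 h, the irradiated vehicle libraries averaging 166 ± 130.3 CPM (SD, n = 8) and the untreated columns 44.8 ± 22.4 CPM (SD, n = 15; log2 fold change 1.89, SE 0.35, adjusted p = 4.32e-05). At 24 h irradiated dmPGE2 HSC had 46.9 to 455 CPM (median 79.5), against 36.03 to 56.7 CPM (median 49.6) in irradiated vehicle HSC (log2 fold change 1.5, SE 0.42, adjusted p = 0.00643). This last difference rests on male library 5 with 455 CPM, and without it the log2 fold change was 0.91, adjusted p = 0.084. Without male libraries 5 to 7 it was 0.51, adjusted p = 0.502. Neutrophil markers had a median sum of 492 CPM in irradiated dmPGE2 HSC and 106 CPM in irradiated vehicle HSC at 24 h. In untreated HSC the median of this sum was 561 CPM. The neutrophil markers went both ways between the irradiated groups at 24 h. Mean CPM of Elane, Mpo and Ctsg was lower with dmPGE2 than with vehicle, and that of the others, such as Prtn3 and Ngp, was higher. Megakaryocyte markers had 577 CPM in irradiated dmPGE2 HSC and 985 CPM in irradiated vehicle HSC, and the part of either in the 24 h results was not tested. In bulk RNA, fewer cells of a type and less RNA per cell cannot be told apart.

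Cebpg, the widely expressed heterodimer partner of ATF4, was lower with dmPGE2. Its libraries had 33.6 to 50.7 CPM (median 36.9) in irradiated dmPGE2 HSC at 1 h and 68.96 to 94.2 CPM (median 80.1) in irradiated vehicle HSC, ranges that did not overlap (log2 fold change -1.03, SE 0.10, adjusted p = 1.33e-11). HSC given dmPGE2 without radiation had 39.8 ± 4.17 CPM (SD, n = 7) and untreated HSC 56.5 ± 8.71 CPM (SD, n = 15; log2 fold change -0.50, SE 0.09, adjusted p = 8.46e-05). Irradiated vehicle HSC were above untreated HSC at 1 h (log2 fold change 0.50, SE 0.09, adjusted p = 1.43e-05) and at 24 h (log2 fold change 0.28, SE 0.09, adjusted p = 0.00667). With libraries scaled to their totals alone, the second was 0.18, adjusted p = 0.0758. At 24 h it had 59.9 ± 9.15 CPM in irradiated dmPGE2 HSC and 68.5 ± 10.1 CPM in irradiated vehicle HSC (SD, n = 8 each), a difference that was not called (log2 fold change -0.19, SE 0.10, adjusted p = 0.162). The test of dmPGE2 by radiation asks whether the change with radiation differs between dmPGE2 and vehicle, and it gave a difference of -0.52 on the log2 scale, SE 0.14, adjusted p = 0.0164. That call was lost with the 8-column baseline (-0.48, adjusted p = 0.0577) and without the libraries of high plasma cell markers (-0.47, adjusted p = 0.0797).

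Nupr1, a small stress-induced chromatin protein, was higher with dmPGE2 in irradiated HSC at 1 h and 24 h. At 24 h it had 35.8 to 97.6 CPM (median 54.6) in irradiated dmPGE2 HSC and 16.3 to 27.8 CPM (median 19.6) in irradiated vehicle HSC, so every dmPGE2 library lay above every vehicle library (log2 fold change 1.58, SE 0.21, adjusted p = 3.2e-07). At 1 h it had 18.3 to 39.2 CPM (median 23.8) in irradiated dmPGE2 HSC and 8.13 to 18.7 CPM (median 15.7) in irradiated vehicle HSC, with a small overlap (log2 fold change 0.78, SE 0.21, adjusted p = 0.00559). Irradiated vehicle HSC were below untreated HSC at 1 h, with 14.6 ± 3.46 CPM (SD, n = 8) and 26.4 ± 6.59 CPM (SD, n = 15; log2 fold change -0.86, SE 0.19, adjusted p = 0.00054). HSC given dmPGE2 without radiation had 19.9 ± 7.95 CPM (SD, n = 7), mostly within the untreated range (log2 fold change -0.40, SE 0.19, adjusted p = 0.199). With mice paired by tag the log2 fold change was -0.51, adjusted p = 0.0072. For dmPGE2 by radiation Nupr1 gave a difference of 1.19 on the log2 scale, SE 0.28, adjusted p = 0.0069. This was lost with the 8-column baseline (1.07, adjusted p = 0.0548) and without the libraries of high plasma cell markers (1.01, adjusted p = 0.0563).

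Atf4, the factor at the centre of the response, changed less. It averaged 90.9 ± 20.7 CPM in irradiated dmPGE2 HSC and 87.3 ± 4.25 CPM in irradiated vehicle HSC at 1 h (SD, n = 8 each; log2 fold change 0.06, SE 0.12, adjusted p = 0.832). Both irradiated groups and the dmPGE2-only group at 74.6 ± 10.5 CPM (SD, n = 7) were above untreated HSC at 56.03 ± 10.9 CPM (SD, n = 15). The log2 fold changes were 0.70 (SE 0.10, adjusted p = 2.26e-07) for radiation with dmPGE2, 0.64 (SE 0.10, adjusted p = 1.71e-06) for radiation with vehicle and 0.41 (SE 0.11, adjusted p = 0.00433) for dmPGE2 alone. At 24 h irradiated dmPGE2 HSC still had 70.6 to 96.9 CPM (median 83.6), against 47.3 to 71.2 CPM (median 60.2) in irradiated vehicle HSC, and the ranges met only at their edges (log2 fold change 0.49, SE 0.12, adjusted p = 0.00144). Ddit3, which encodes CHOP, a factor of apoptosis in prolonged stress, had 8.99 to 20.1 CPM (median 15.6) in irradiated dmPGE2 HSC at 1 h and 17.8 to 38.1 CPM (median 25.02) in irradiated vehicle HSC (log2 fold change -0.77, SE 0.17, adjusted p = 0.00104). At 24 h Ddit3 was the higher in the dmPGE2 group, with 18.1 ± 8.09 CPM in irradiated dmPGE2 HSC and 11.3 ± 2.497 CPM in irradiated vehicle HSC (SD, n = 8 each; log2 fold change 0.67, SE 0.18, adjusted p = 0.00351). Without male libraries 5 to 7 the log2 fold change was 0.35, adjusted p = 0.198. Atf5, a relative of ATF4, was scarce, with 0.433 to 3.55 CPM (median 1.35) in irradiated dmPGE2 HSC at 24 h and 0.353 to 1.32 CPM (median 0.585) in irradiated vehicle HSC (log2 fold change 1.25, SE 0.36, adjusted p = 0.00734). Its call was lost without male libraries 5 to 7 (1.12, adjusted p = 0.0614). At 1 h Atf5 had 0.815 ± 0.276 CPM in irradiated dmPGE2 HSC, 1.15 ± 0.229 CPM in irradiated vehicle HSC and 1.10 ± 0.338 CPM in dmPGE2-only HSC, against 0.916 ± 0.317 CPM in untreated HSC. None of these differences was called.

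**Figure D2:**
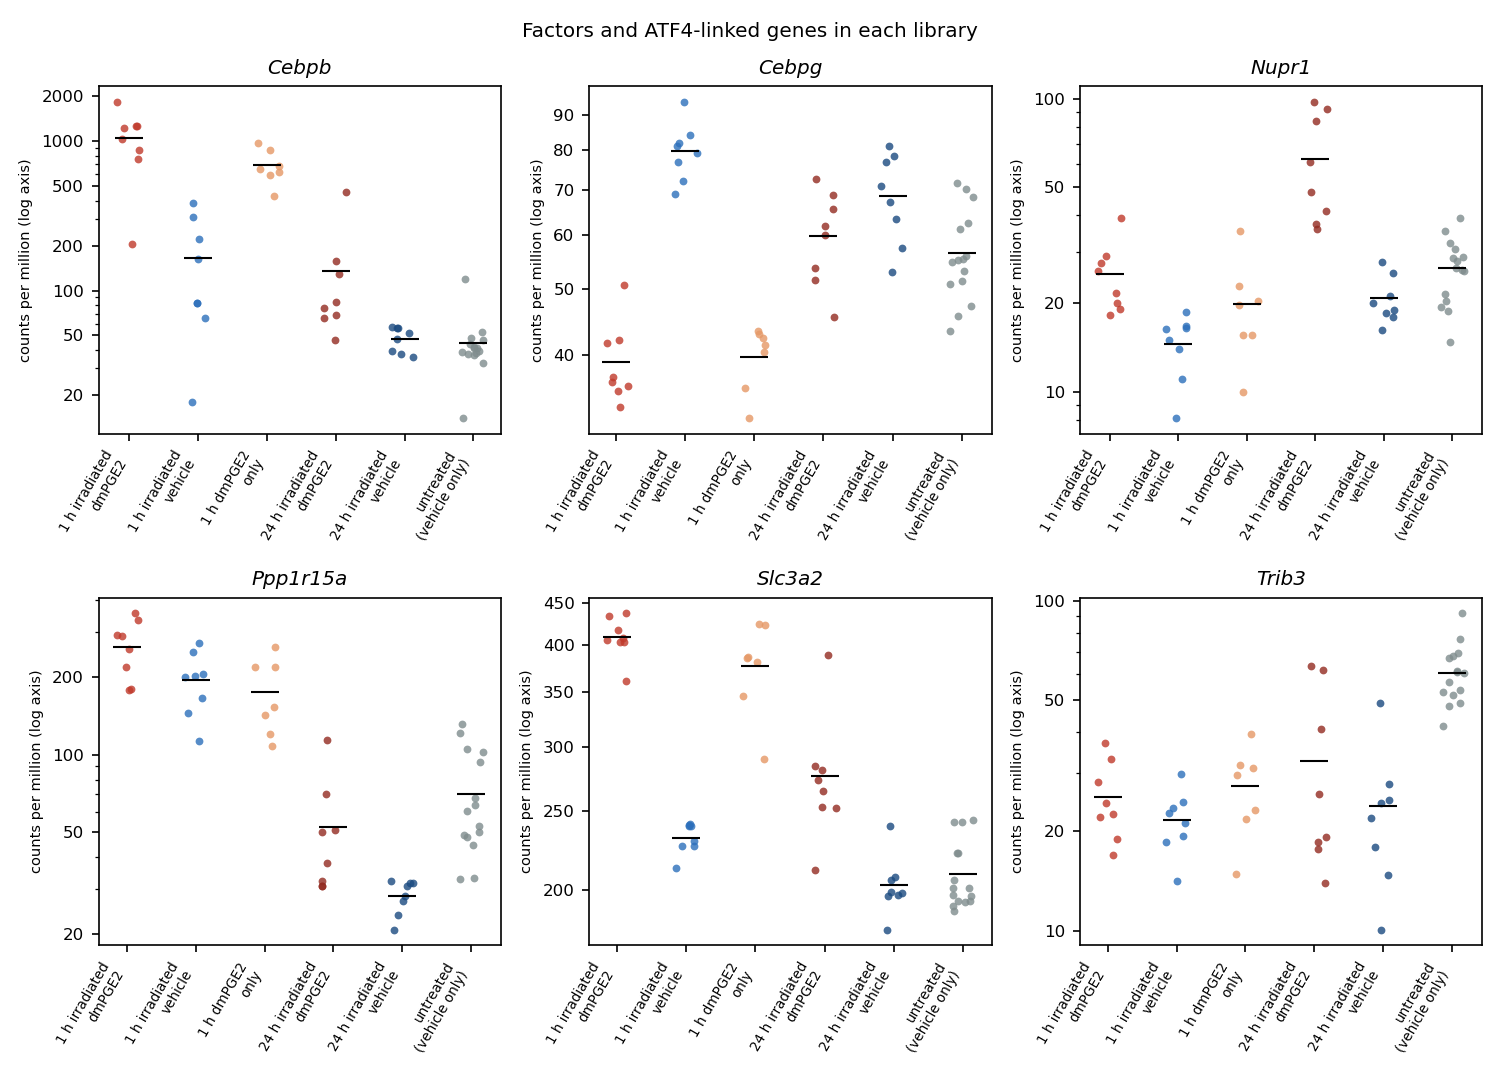
CPM (counts scaled to library size, log axes) of 6 genes in each library, by group from left to right, with black lines at the group means. Cebpb averaged 1061 CPM in irradiated dmPGE2 HSC and 166 CPM in irradiated vehicle HSC at 1 h, Slc3a2 did not overlap between these groups, and Trib3 was highest in untreated HSC.

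Of the 14 ATF4 targets, all 14 had a log2 fold change above 0 for dmPGE2 in irradiated HSC at 1 h, with a median of 0.27. Of all 14320 genes tested, 7333 were above 0, with a median of 0.01. The 14 of 14 depends on how genes were sorted into classes. Ddit3, on which ATF4 also acts, was counted with the factors and was lower (log2 fold change -0.77). Of 24 other tested genes linked to ATF4, 15 were above 0 and 9 below, with 2 called higher and 5 lower. Library 6 of irradiated dmPGE2 HSC at 1 h was the highest of its group for every target but Trib3, Slc7a11, Slc3a2 and Ppp1r15a. It had 130 CPM of Asns and 321 CPM of Slc7a5, where the next highest libraries had 76.8 and 201 CPM. How many of the 14 stay above 0 without library 6 was not counted. Of the 14, 2 were called, Slc7a11 and Slc3a2, where 7.04% of all genes rose. These proteins form the cystine and glutamate exchanger, in which SLC3A2 (CD98) is the heavy chain shared with the leucine carrier SLC7A5. Slc3a2 had 361 to 438 CPM (median 407) in irradiated dmPGE2 HSC at 1 h and 213 to 241 CPM (median 234) in irradiated vehicle HSC, and no library of one group reached the other (log2 fold change 0.82, SE 0.08, adjusted p = 2.78e-12). Without radiation the dmPGE2 libraries had 289 to 424 CPM (median 386) and the untreated columns 189 to 244 CPM (median 201), again with no overlap (log2 fold change 0.85, SE 0.07, adjusted p = 1.07e-14). At 24 h the same gene averaged 276 ± 51.1 CPM in irradiated dmPGE2 HSC and 203 ± 17.1 CPM in irradiated vehicle HSC (SD, n = 8 each; log2 fold change 0.45, SE 0.08, adjusted p = 2.86e-05). The response at 24 h was smaller than that at 1 h by the test of the difference itself (difference of -0.37 on the log2 scale, SE 0.11, adjusted p = 0.00833). Radiation with vehicle left it at log2 fold changes of 0.15 (adjusted p = 0.127) at 1 h and -0.04 (adjusted p = 0.618) at 24 h, neither of them called. With mice paired by tag, which is described with the processing, the value at 1 h was 0.15, adjusted p = 0.0179.

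Slc7a11 was scarce in all groups. It had 1.69 to 6.30 CPM (median 3.01) in irradiated dmPGE2 HSC at 1 h and 0.465 to 1.29 CPM (median 0.719) in irradiated vehicle HSC, ranges that did not overlap (log2 fold change 2.11, SE 0.56, adjusted p = 0.00521). Without radiation it had 1.35 to 5.33 CPM (median 2.64) in dmPGE2 HSC and 0.128 to 2.52 CPM (median 0.777) in untreated HSC (log2 fold change 1.83, SE 0.47, adjusted p = 0.00443). With the 8-column baseline this was 1.53, adjusted p = 0.0868. At 24 h it had 0.0925 to 6.51 CPM (median 0.5676) in irradiated dmPGE2 HSC and 0.255 to 0.879 CPM (median 0.353) in irradiated vehicle HSC (log2 fold change 1.60, SE 0.56, adjusted p = 0.0304). That call rested on female library 3, which held the highest value. Without library 3 the log2 fold change was 0.47, adjusted p = 0.535, and without libraries 3 and 5 to 7 it was -0.15, adjusted p = 0.929. Leaving out dmPGE2 library 5 or vehicle library 3, 5 or 6 alone also ended the call, with adjusted p-values of 0.0514 to 0.0544. So did leaving out the libraries of high plasma cell markers (1.58, adjusted p = 0.0533).

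Trib3, a pseudokinase that binds ATF4 and restrains AKT, was highest in untreated HSC. It had 16.9 to 37.01 CPM (median 23.5) in irradiated dmPGE2 HSC, 14.1 to 29.97 CPM (median 21.97) in irradiated vehicle HSC and 14.9 to 39.7 CPM (median 29.6) in dmPGE2-only HSC at 1 h, against 41.7 to 91.8 CPM (median 60.6) in untreated HSC. None of these 3 groups overlapped the untreated columns. The log2 fold changes against untreated HSC were -1.25 (SE 0.23, adjusted p = 2.29e-05) for radiation with dmPGE2, -1.48 (SE 0.23, adjusted p = 1.34e-06) for radiation with vehicle and -1.14 (SE 0.24, adjusted p = 0.000356) for dmPGE2 alone. At 24 h it had 32.7 ± 20.3 CPM in irradiated dmPGE2 HSC and 23.9 ± 11.7 CPM in irradiated vehicle HSC (SD, n = 8 each), against untreated HSC at 60.7 ± 12.7 CPM (SD, n = 15). The log2 fold changes were -0.89 (adjusted p = 0.0012) with dmPGE2 and -1.35 (adjusted p = 2.06e-06) with vehicle, and all these comparisons share the untreated columns. Between dmPGE2 and vehicle in irradiated HSC the difference was not called at 1 h (log2 fold change 0.23, SE 0.25, adjusted p = 0.635) or at 24 h (log2 fold change 0.45, SE 0.25, adjusted p = 0.182). For dmPGE2 by radiation Trib3 gave a difference of 1.37 on the log2 scale, SE 0.34, adjusted p = 0.00948. This was lost without the libraries of high plasma cell markers (1.13, adjusted p = 0.0857).

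Ppp1r15a, whose product GADD34 reverses eIF2α phosphorylation, was high at 1 h and low at 24 h. It had 113 to 273 CPM (median 202) in irradiated vehicle HSC at 1 h against 32.8 to 132 CPM (median 60.5) in untreated HSC (log2 fold change 1.47, SE 0.22, adjusted p = 5.38e-07). HSC given dmPGE2 without radiation had 108 to 264 CPM (median 154) (log2 fold change 1.32, SE 0.22, adjusted p = 1.74e-05). Irradiated dmPGE2 HSC at 1 h had 179 to 356 CPM (median 273), above all untreated columns (log2 fold change 1.90, SE 0.22, adjusted p = 7.03e-10). Their difference from irradiated vehicle HSC at 1 h was not called. At 24 h after radiation with vehicle it had 20.8 to 32.3 CPM (median 29.4), below all untreated columns (log2 fold change -1.32, SE 0.24, adjusted p = 8.05e-06). Irradiated dmPGE2 HSC at 24 h had 30.8 to 115 CPM (median 43.9), above irradiated vehicle HSC in the test (log2 fold change 0.89, SE 0.26, adjusted p = 0.0095). Without male library 5 this was 0.62, adjusted p = 0.0712, and without male libraries 5 to 7 it was 0.36, adjusted p = 0.453. Radiation under dmPGE2 at 1 h, the comparison of the irradiated and non-irradiated dmPGE2 groups, gave 0.59 (adjusted p = 0.897), and 0.68, adjusted p = 0.008 with mice paired by tag.

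At 24 h, 3 enzymes of serine and one-carbon synthesis fell with dmPGE2. Psat1, the serine synthesis transaminase, had 105 to 258 CPM (median 214) in irradiated dmPGE2 HSC and 243 to 314 CPM (median 275) in irradiated vehicle HSC. The vehicle libraries lay above all untreated columns, which had 133 to 183 CPM (median 153). It fell with dmPGE2 (log2 fold change -0.55, SE 0.13, adjusted p = 0.0017) and rose with radiation and vehicle (log2 fold change 0.84, SE 0.11, adjusted p = 1.53e-08). Its 3 lowest libraries were males 5 to 7, and without them the log2 fold change for dmPGE2 was -0.24, adjusted p = 0.175. Mthfd2, the mitochondrial folate enzyme, averaged 13.3 ± 7.29 CPM in irradiated dmPGE2 HSC and 22.6 ± 6.47 CPM in irradiated vehicle HSC (SD, n = 8 each; log2 fold change -0.76, SE 0.27, adjusted p = 0.0348). Radiation with vehicle raised it over untreated HSC at 12.7 ± 3.92 CPM (SD, n = 15; log2 fold change 0.82, SE 0.23, adjusted p = 0.00262). Without males 5 to 7 the log2 fold change of Mthfd2 for dmPGE2 was -0.34, adjusted p = 0.502. Phgdh, which catalyses the first step of serine synthesis, had 184 to 564 CPM (median 384) in irradiated dmPGE2 HSC and 431 to 535 CPM (median 495) in irradiated vehicle HSC (log2 fold change -0.35, SE 0.12, adjusted p = 0.021). Its lowest libraries were again males 5 to 7, and without them the log2 fold change was -0.09, adjusted p = 0.626. Leaving out 5, 6 or 7 alone also ended the call (adjusted p-values of 0.0593 to 0.0818 by edgeR). All 3 falls were thus lost without these libraries. At 1 h Phgdh had 439.7 ± 70.03 CPM in irradiated dmPGE2 HSC, 366 ± 45.5 CPM in irradiated vehicle HSC and 423 ± 35.9 CPM in dmPGE2-only HSC, against 433 ± 24.6 CPM in untreated HSC, with no call among them. With mice paired by tag, Phgdh was lower after radiation with vehicle at 1 h (-0.25, adjusted p = 0.00146). Shmt2, the mitochondrial serine hydroxymethyltransferase, had a log2 fold change of -0.16 (adjusted p = 0.41) with dmPGE2 at 24 h.

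Vldlr, a lipoprotein receptor, had 23.8 to 92.5 CPM (median 78.2) in irradiated dmPGE2 HSC at 24 h and 11.7 to 39.6 CPM (median 17.6) in irradiated vehicle HSC (log2 fold change 1.66, SE 0.40, adjusted p = 0.0019). Radiation with vehicle lowered it against untreated HSC at 42.9 ± 13.1 CPM (SD, n = 15; log2 fold change -1.03, SE 0.36, adjusted p = 0.0151). With the 7-column baseline this was -1.02, adjusted p = 0.0616. At 1 h it had 23.5 to 255 CPM (median 31.1) in irradiated dmPGE2 HSC and 15.1 to 72.7 CPM (median 20.02) in irradiated vehicle HSC, and the difference was not called (log2 fold change 1.00, SE 0.40, adjusted p = 0.0818). HSC given dmPGE2 without radiation had 44.9 ± 24.7 CPM (SD, n = 7). The remaining targets are Asns, Chac1 and Aldh18a1, of asparagine, glutathione and proline metabolism, and the carriers Slc7a1 and Slc7a5. None of these 5 was called for dmPGE2 in irradiated HSC at either time. Without male libraries 5 to 7, Asns (0.52, adjusted p = 0.0224) and Slc7a5 (0.54, adjusted p = 0.0351) passed at 24 h, and both were higher. In all libraries the log2 fold changes of the 5 ran from 0.15 (Asns) to 1.54 (Chac1, adjusted p = 0.188) at 1 h and from -0.19 (Slc7a1) to 0.74 (Chac1) at 24 h. Chac1 was scarce, at 0.483 to 9.79 CPM (median 2.04) in irradiated dmPGE2 HSC and 0.0465 to 2.09 CPM (median 1.02) in irradiated vehicle HSC at 1 h.

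Of the 4 kinases that start the response, the ER sensor Eif2ak3 alone was called for dmPGE2, at 1 h. Eif2ak3 (PERK) had 16.2 to 27.9 CPM (median 20.4) in irradiated dmPGE2 HSC at 1 h and 27.3 to 34.7 CPM (median 32.4) in irradiated vehicle HSC, overlapping slightly (log2 fold change -0.58, SE 0.12, adjusted p = 0.000412). Without radiation it averaged 23.04 ± 2.30 CPM in dmPGE2 HSC (SD, n = 7) and 31.7 ± 6.04 CPM in untreated HSC (SD, n = 15; log2 fold change -0.46, SE 0.11, adjusted p = 0.00308). With the 7-column baseline this was -0.28, adjusted p = 0.151. Eif2ak4 (GCN2), the sensor of uncharged tRNA, had 32.8 ± 14.3 CPM at 24 h after radiation with vehicle (SD, n = 8) and 44.9 ± 8.28 CPM in untreated HSC (SD, n = 15; log2 fold change -0.45, SE 0.14, adjusted p = 0.0066). Eif2ak1 (HRI), the heme-regulated kinase, had 84.5 ± 10.02 CPM in irradiated vehicle HSC at 24 h and 98.6 ± 8.96 CPM in untreated HSC (log2 fold change -0.22, SE 0.08, adjusted p = 0.014). With the 7-column baseline the log2 fold change was -0.27, adjusted p = 0.214, for Eif2ak4 and -0.20, adjusted p = 0.0814, for Eif2ak1. At 1 h Eif2ak1 averaged 103 ± 8.41 CPM in irradiated dmPGE2 HSC, 103 ± 8.38 CPM in irradiated vehicle HSC and 103 ± 9.77 CPM in dmPGE2-only HSC. Eif2ak4 had 52.3 ± 5.53 CPM in irradiated dmPGE2 HSC, 51.8 ± 10.5 CPM in irradiated vehicle HSC and 49.2 ± 10.2 CPM in dmPGE2-only HSC at that time. With dmPGE2, irradiated HSC at 24 h had 85.9 ± 18.5 CPM of Eif2ak1 and 32.6 ± 5.83 CPM of Eif2ak4 (SD, n = 8), and neither was called against irradiated vehicle HSC. Eif2ak2 (PKR), the kinase of double-stranded RNA, was called in none of the 5 comparisons of dmPGE2 or radiation, with adjusted p-values down to 0.0972, for radiation with vehicle at 24 h. With the 7-column baseline that last value was called (0.47, adjusted p = 0.0447).

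The sensors Ern1 and Atf6 and the downstream factor Xbp1 all had log2 fold changes above 0 for dmPGE2 at 24 h. PERK (Eif2ak3), also a sensor, was counted with the kinases, whose log2 fold changes in that comparison were -0.02 to 0.10. Xbp1, the factor spliced by IRE1α, had 376 to 1040.5 CPM (median 446) in irradiated dmPGE2 HSC and 286 to 453 CPM (median 341) in irradiated vehicle HSC (log2 fold change 0.56, SE 0.16, adjusted p = 0.00756). Atf6, a membrane-held factor, had 22.8 to 97.5 CPM (median 44.1) in irradiated dmPGE2 HSC and 22.5 to 49.6 CPM (median 28.7) in irradiated vehicle HSC (log2 fold change 0.66, SE 0.18, adjusted p = 0.00654). Both calls rested on male library 5. Without it the log2 fold change was 0.33, adjusted p = 0.0817, for Xbp1 and 0.44, adjusted p = 0.0602, for Atf6. Without male libraries 5 to 7 it was 0.36, adjusted p = 0.143, for Xbp1 and 0.27, adjusted p = 0.397, for Atf6. Ern1 (IRE1α) averaged 22.4 ± 5.17 CPM in irradiated dmPGE2 HSC and 14.9 ± 7.29 CPM in irradiated vehicle HSC (SD, n = 8 each; log2 fold change 0.59, SE 0.33, adjusted p = 0.193). Against untreated HSC at 36.95 ± 19.7 CPM (SD, n = 15), Ern1 fell in irradiated vehicle HSC at 24 h (log2 fold change -1.31, SE 0.30, adjusted p = 0.000296). Atf6 fell too (log2 fold change -0.46, SE 0.16, adjusted p = 0.0154), but with the 7-column baseline it was -0.16, adjusted p = 0.521. At 1 h without radiation Xbp1 had 279.7 ± 39.3 CPM in dmPGE2 HSC (SD, n = 7) and 408 ± 111 CPM in untreated HSC (SD, n = 15; log2 fold change -0.55, SE 0.15, adjusted p = 0.0089). With the 8-column baseline this was -0.49, adjusted p = 0.0502. At 1 h Xbp1 had 393 ± 64.5 CPM in irradiated dmPGE2 HSC and 387 ± 93.7 CPM in irradiated vehicle HSC (log2 fold change 0.02, SE 0.16, adjusted p = 0.955). At 1 h Ern1 had 34.9 ± 12.2 CPM in irradiated dmPGE2 HSC, 52.1 ± 30.3 CPM in irradiated vehicle HSC and 44.3 ± 30.8 CPM in dmPGE2-only HSC. Atf6 had 49.4 ± 4.74 CPM in irradiated dmPGE2 HSC, 49.05 ± 3.60 CPM in irradiated vehicle HSC, 51.6 ± 8.64 CPM in dmPGE2-only HSC and 42.6 ± 11.2 CPM in untreated HSC, and neither gene was called at 1 h. With mice paired by tag, Ern1 was higher after radiation with vehicle (0.44, adjusted p = 0.0276).

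Herpud1 gave the clearest pattern of the ER genes. HERP, its product, sits in the ER membrane and takes part in the degradation of misfolded proteins. By the positions deposited with the counts, the gene lies at chr8:94386500-94395358 on mm10. Its RefSeq start, from which the promoter distances were counted, lies before that start. At 1 h it had 147 to 224 CPM (median 177) in irradiated dmPGE2 HSC, 337 to 546 CPM (median 379) in irradiated vehicle HSC, 134 to 163 CPM (median 156) in dmPGE2-only HSC and 167 to 229 CPM (median 196) in untreated HSC. Every irradiated vehicle library lay above every library of the other 3 groups. The fold changes were 0.442 for dmPGE2 in irradiated HSC (log2 fold change -1.18, SE 0.08, adjusted p = 1.38e-17), 2.06 for radiation alone (log2 fold change 1.04, SE 0.07, adjusted p = 5.78e-19) and 0.778 for dmPGE2 without radiation (log2 fold change -0.36, SE 0.07, adjusted p = 0.000289). The first 2 share the irradiated vehicle libraries. Radiation under dmPGE2 gave a log2 fold change of 0.23 (adjusted p = 0.57). For dmPGE2 by radiation Herpud1 gave a difference of -0.82 on the log2 scale, SE 0.11, adjusted p = 1.39e-07. At 24 h the irradiated dmPGE2 libraries had 189 ± 11.4 CPM and the irradiated vehicle libraries 169 ± 19.5 CPM (SD, n = 8 each; log2 fold change 0.16, SE 0.08, adjusted p = 0.134). The response to dmPGE2 differed between the times (difference of 1.34 on the log2 scale, SE 0.11, adjusted p = 1.04e-13).

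Dnajb9, which encodes the BiP co-chaperone ERdj4, had the same order of groups at 1 h. It had 19.9 to 54.8 CPM (median 41.8) in irradiated dmPGE2 HSC, 59.2 to 152 CPM (median 78.2) in irradiated vehicle HSC, 31.3 to 44.04 CPM (median 35.6) in dmPGE2-only HSC and 36.7 to 57.4 CPM (median 48.8) in untreated HSC. The irradiated vehicle libraries again lay above all others. It fell with dmPGE2 in irradiated HSC (log2 fold change -1.09, SE 0.15, adjusted p = 6.09e-08), and radiation alone raised it (log2 fold change 0.87, SE 0.12, adjusted p = 1.66e-07). For dmPGE2 by radiation Dnajb9 gave a difference of -0.69 on the log2 scale, SE 0.19, adjusted p = 0.0323. This was lost with the 8-column baseline (-0.64, adjusted p = 0.139) and with columns of 1 tag summed (-0.68, adjusted p = 0.0804). At 24 h dmPGE2 libraries were the higher ones, with 40.3 to 74.4 CPM (median 58.8) in irradiated dmPGE2 HSC and 28.6 to 44.02 CPM (median 37.3) in irradiated vehicle HSC (log2 fold change 0.67, SE 0.14, adjusted p = 0.000499). The response at 24 h minus that at 1 h was 1.76 (SE 0.20, adjusted p = 3.52e-09). Dnajb9 was lower in dmPGE2-only HSC than in untreated HSC (log2 fold change -0.39, SE 0.13, adjusted p = 0.0451), and this call was lost with each of 3 other baselines. It was -0.44, adjusted p = 0.0748, with the 8-column baseline, -0.34, adjusted p = 0.198, with the 7-column baseline and -0.41, adjusted p = 0.0974, with columns of 1 tag summed. It was also not called without any 1 of dmPGE2-only libraries 1 to 6 or of untreated columns 1 and 8 (adjusted p-values of 0.0554 to 0.107). At 24 h after radiation with vehicle it was also below untreated HSC (log2 fold change -0.42, SE 0.13, adjusted p = 0.00586), and with the 7-column baseline this was -0.36, adjusted p = 0.071.

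**Figure D3:**
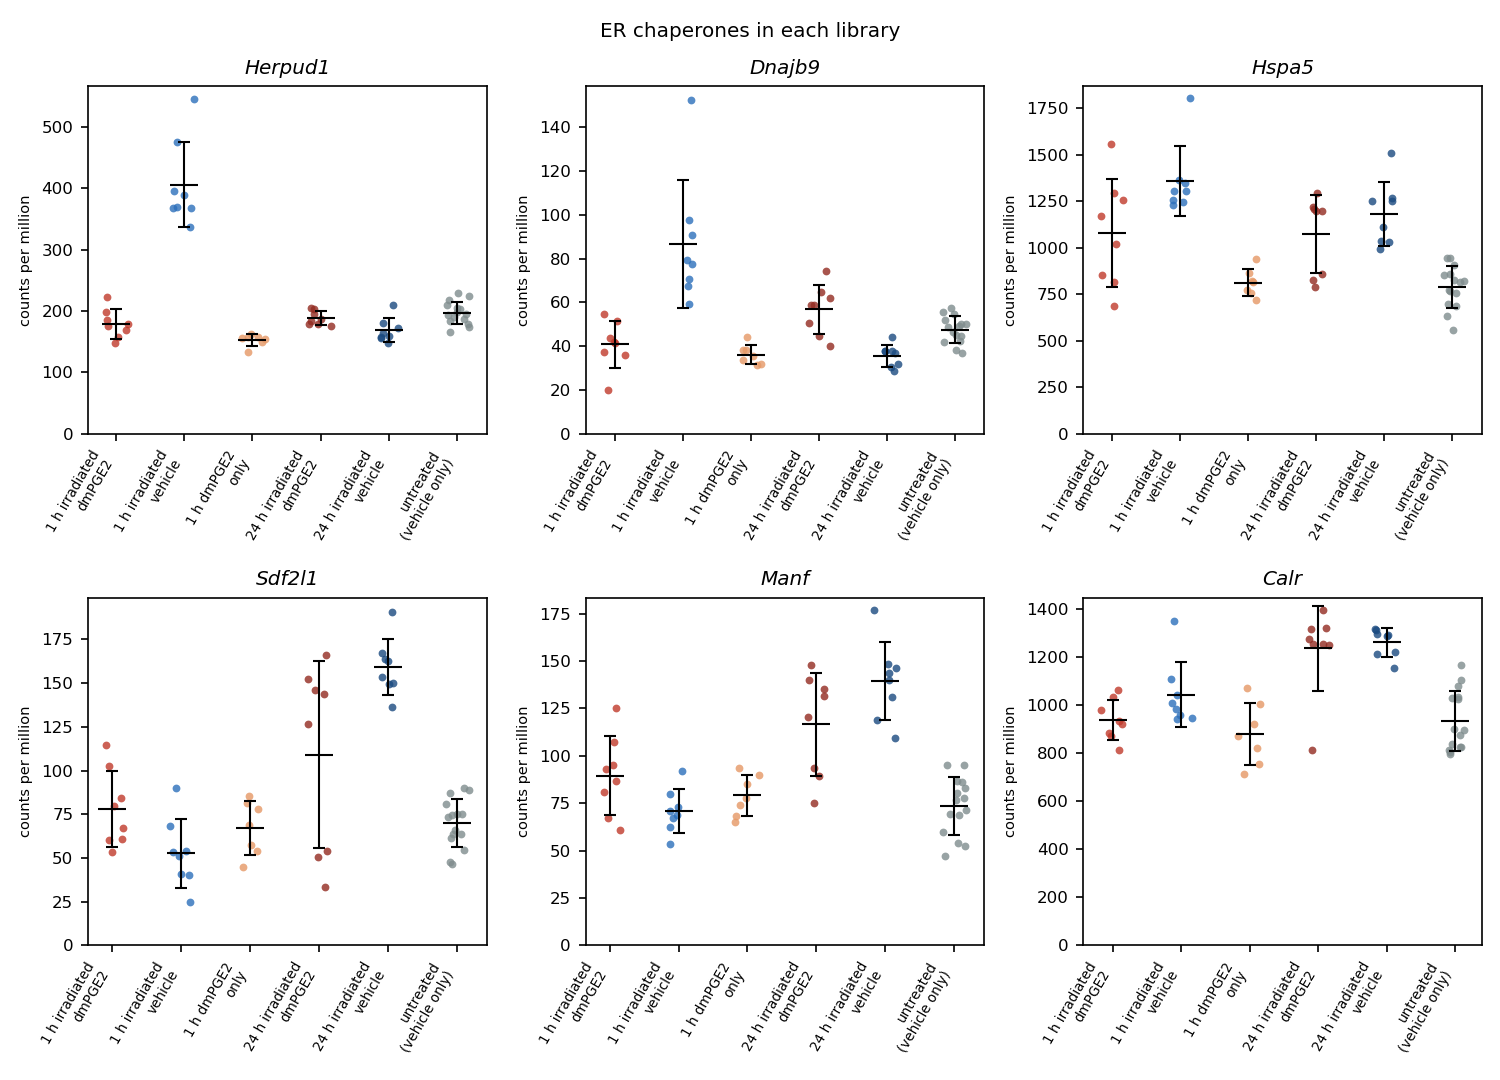
CPM of 6 ER genes in each library, by group from left to right, with means and SD in black. Herpud1 and Dnajb9 were highest in irradiated vehicle HSC at 1 h, whereas Sdf2l1 and Manf in irradiated vehicle HSC at 24 h lay above all untreated columns.

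Hspa5, which encodes BiP, the main ER chaperone, rose with radiation at both times. Irradiated vehicle HSC had 1231 to 1807 CPM (median 1304) at 1 h and 993 to 1509.9 CPM (median 1181) at 24 h, against 559.5 to 943 CPM (median 816) in untreated HSC, and neither irradiated group overlapped the untreated columns. The log2 fold changes were 0.78 (SE 0.10, adjusted p = 2.47e-08) at 1 h and 0.58 (SE 0.10, adjusted p = 4.64e-06) at 24 h. With dmPGE2, irradiated HSC at 1 h had 688 to 1556 CPM (median 1095). The difference from irradiated vehicle HSC was -0.33 on the log2 scale (SE 0.12, adjusted p = 0.0543), or -0.36, adjusted p = 0.0238, with mice paired by tag. With that pairing 2 ER genes rose, Sdf2l1 (0.60, adjusted p = 0.00479) and Manf (0.32, adjusted p = 0.00921), and 3 fell, where 2 fell without it. The share of all genes called with pairing was not counted. HSC given dmPGE2 without radiation had 812 ± 73.3 CPM of Hspa5 (SD, n = 7; log2 fold change 0.04, SE 0.11, adjusted p = 0.896). Irradiated dmPGE2 HSC at 24 h had 1074 ± 209 CPM (SD, n = 8; log2 fold change -0.14, SE 0.12, adjusted p = 0.437, against irradiated vehicle HSC).

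At 24 h after radiation with vehicle most ER genes were higher. Of the 13, 10 were higher than in untreated HSC, and Dnajb9 and Herpud1 were lower, among 23.3% of all genes higher and 26.5% lower. The median log2 fold change was 0.34 over the 13 ER genes and -0.06 over all genes tested. The number higher was also 10 with either set of untreated columns and with columns of 1 tag summed, and 9 without the libraries of high plasma cell markers. The share of all genes higher in these fits was not counted. Both sets of untreated columns carry other tags than the 24 h libraries, so radiation and tag cannot be told apart here. Herpud1 (log2 fold change -0.22, SE 0.07, adjusted p = 0.0066) was -0.19, adjusted p = 0.0545, with the 8-column baseline. Sdf2l1, a partner of ERdj co-chaperones, had 137 to 191 CPM (median 158) in irradiated vehicle HSC and 46.6 to 89.8 CPM (median 73.2) in untreated HSC, with no overlap (log2 fold change 1.19, SE 0.19, adjusted p = 5.34e-07). Manf, a secreted protein that also binds BiP, had 109 to 177 CPM (median 142) in irradiated vehicle HSC and 46.99 to 95.4 CPM (median 76.6) in untreated HSC, also without overlap (log2 fold change 0.92, SE 0.12, adjusted p = 4.24e-09). Calr, the calcium-binding lectin chaperone calreticulin, had 1155 to 1319.7 CPM (median 1292) in irradiated vehicle HSC and 799 to 1169 CPM (median 897) in untreated HSC (log2 fold change 0.43, SE 0.08, adjusted p = 4.61e-06). At 1 h Calr had 939 ± 83.8 CPM in irradiated dmPGE2 HSC, 1045 ± 136 CPM in irradiated vehicle HSC and 881 ± 130.2 CPM in dmPGE2-only HSC, and at 24 h 1237 ± 177 CPM in irradiated dmPGE2 HSC. Edem1 and Creld2 had log2 fold changes of 0.70 and 0.69, and Hsp90b1, Pdia4, Pdia6 and Canx of 0.31 to 0.34. Hyou1 was not called (log2 fold change 0.11, adjusted p = 0.6).

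With dmPGE2 at 24 h the median log2 fold change over the 13 ER genes was -0.16, against irradiated vehicle HSC, and Dnajb9 alone among them was called. Sdf2l1 had 33.6 to 166 CPM (median 135) in irradiated dmPGE2 HSC and 137 to 191 CPM (median 158) in irradiated vehicle HSC (log2 fold change -0.54, SE 0.22, adjusted p = 0.0639). Its dmPGE2 libraries split, with males 5, 6 and 7 at 33.6, 54.2 and 50.5 CPM and the other 5 libraries of that group at 127 CPM or more. At 1 h Sdf2l1 had 77.8 ± 21.7 CPM in irradiated dmPGE2 HSC, 52.7 ± 19.8 CPM in irradiated vehicle HSC and 67.1 ± 15.4 CPM in dmPGE2-only HSC. The response of Sdf2l1 to dmPGE2 at 24 h differed from that at 1 h by -1.11 (SE 0.31, adjusted p = 0.00661). Without libraries 5 to 7 this was -0.68, adjusted p = 0.0533, and without 3 and 5 to 7 -0.73, adjusted p = 0.0504.

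The combined treatments and the times gave these counts. Irradiated dmPGE2 HSC at 1 h had 10 members higher than untreated HSC, with 9.55% of all genes higher, and 3 lower, with 8.76% of all genes lower. At 24 h 15 were higher, with 19% of all genes higher, and 4 lower, with 17.3% of all genes lower. Irradiated vehicle HSC at 24 h had 13 members higher than at 1 h, with 23.4% of all genes higher, and 11 lower, with 27.5% of all genes lower, among them Ppp1r15a at log2 fold change -2.79, adjusted p = 3.95e-12. Irradiated dmPGE2 HSC at 24 h had 9 members higher than at 1 h, with 18.1% of all genes higher, and 7 lower, with 18.2% of all genes lower, among them Cebpb at log2 fold change -2.97, adjusted p = 3.41e-07. Radiation under dmPGE2 at 1 h called 0 of the 40 members by edgeR and 0 by DESeq2, and 6 had an unadjusted p under 0.05, where 0.356% of all genes were higher and 0.0209% lower. Dependence on both dmPGE2 and radiation was called for 2 members higher (Nupr1 and Trib3), with 1.17% of all genes higher, and 3 lower (Cebpg, Dnajb9 and Herpud1), with 1.8% of all genes lower. The response to dmPGE2 was more positive at 24 h than at 1 h for 8 members, with 12.9% of all genes more positive, and more negative for 7, with 12.6% of all genes more negative. Of the 6 transcription factors 5 were more positive, and of the 14 ATF4 targets 4 were more negative.

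ATF4 targets and ER genes were also set beside each other as class means per library. The mean over the 14 ATF4 targets, in log2 CPM, was 6.01 ± 0.34 in irradiated dmPGE2 HSC and 5.51 ± 0.19 in irradiated vehicle HSC at 1 h (SD, n = 8 each). In dmPGE2-only HSC it was 5.79 ± 0.14 (SD, n = 7) and in untreated HSC 5.52 ± 0.24 (SD, n = 15). Library 6 of irradiated dmPGE2 HSC at 1 h had the highest mean over the ATF4 targets, 6.71, and the next highest of its group was 6.14. The mean over the 13 ER genes was 7.59 ± 0.20 in irradiated dmPGE2 HSC and 7.72 ± 0.19 in irradiated vehicle HSC at 1 h (SD, n = 8 each), 7.46 ± 0.12 in dmPGE2-only HSC (SD, n = 7) and 7.52 ± 0.14 in untreated HSC (SD, n = 15). At 24 h the ATF4 targets had 5.59 ± 0.29 in irradiated dmPGE2 HSC and 5.35 ± 0.14 in irradiated vehicle HSC, and the ER genes 7.80 ± 0.28 in irradiated dmPGE2 HSC and 7.93 ± 0.09 in irradiated vehicle HSC (SD, n = 8 each). The ATF4 mean minus the ER mean was -1.58 ± 0.39 in irradiated dmPGE2 HSC, with a range of -2.06 to -1.01, and -2.21 ± 0.21 in irradiated vehicle HSC, with a range of -2.499 to -1.85, at 1 h. At 24 h it was -2.21 ± 0.21 in irradiated dmPGE2 HSC and -2.58 ± 0.16 in irradiated vehicle HSC, against -1.999 ± 0.24 in untreated HSC. The ranges of neighbouring groups overlapped, the scarce Slc7a11 and Chac1 weigh as much as any other target, and no test was made on these means.

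**Figure D4:**
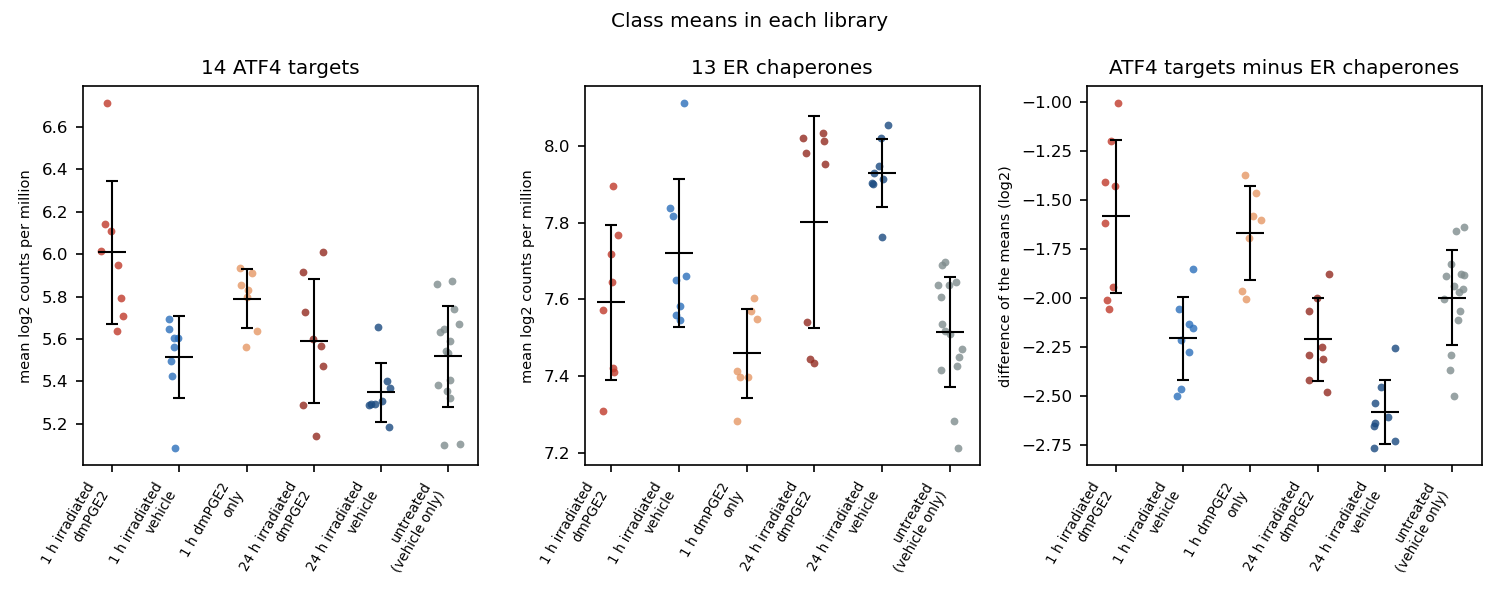
Mean log2 CPM over the 14 ATF4 targets, over the 13 ER chaperones and quality control genes, and their difference, in each library by group from left to right, with means and SD in black. The difference was -1.58 ± 0.39 in irradiated dmPGE2 HSC and -2.21 ± 0.21 in irradiated vehicle HSC at 1 h, and lowest, at -2.58 ± 0.16, in irradiated vehicle HSC at 24 h.

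Levels compared per exon length put Calr at 534 RPKM (CPM per kilobase of exon, mean over all libraries), Hspa5 at 390 RPKM and Phgdh at 227 RPKM at the top of the 40. Slc7a11 at 0.167 RPKM, Atf5 at 0.52 RPKM and Chac1 at 0.846 RPKM were at the bottom.

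The wider pathway was taken from a list of 105 other genes. Of the 19 cytosolic aminoacyl-tRNA synthetases, which charge tRNAs with amino acids, 13 rose and 1 fell at 24 h after radiation with vehicle, where 23.3% of all genes tested rose and 26.5% fell. Cars, the cysteine enzyme, had 46.5 ± 7.52 CPM in irradiated vehicle HSC and 33.6 ± 6.87 CPM in untreated HSC (log2 fold change 0.47, SE 0.13, adjusted p = 0.00166). With dmPGE2 in irradiated HSC at 24 h, 4 of them fell, where 11.5% of all genes fell. Rars, the arginine enzyme, had 111 ± 21.7 CPM in irradiated dmPGE2 HSC and 143 ± 13.6 CPM in irradiated vehicle HSC (log2 fold change -0.37, SE 0.09, adjusted p = 0.00143). Of 12 genes of eIF2 translation control, 9 rose at 24 h after radiation with vehicle, where 23.3% of all genes rose. Eif2s1, which encodes eIF2α, had 405 ± 31.3 CPM in irradiated vehicle HSC and 225 ± 27.7 CPM in untreated HSC (log2 fold change 0.85, SE 0.11, adjusted p = 6.72e-09). Of the 47 tested genes among 49 of ER folding and degradation, 23 rose and 8 fell in that comparison, again beside 23.3% and 26.5% of all genes. Ssr4, a subunit of the translocon, had 189.6 ± 19.9 CPM in irradiated vehicle HSC and 106 ± 15.99 CPM in untreated HSC (log2 fold change 0.83, SE 0.09, adjusted p = 2.48e-11).

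At 1 h, 2 other genes linked to ATF4, Gdf15 and Sesn2, had larger fold changes for dmPGE2 in irradiated HSC than any of the 40 members. Gdf15, a stress cytokine, had 33.9 ± 27.8 CPM in irradiated dmPGE2 HSC and 1222 ± 221 CPM in irradiated vehicle HSC (SD, n = 8 each; log2 fold change -5.17, SE 0.38, adjusted p = 1.11e-15). Sesn2, an inhibitor of mTORC1, had 39.6 ± 13.7 CPM in irradiated dmPGE2 HSC and 552 ± 73.7 CPM in irradiated vehicle HSC (SD, n = 8 each; log2 fold change -3.80, SE 0.16, adjusted p = 6.5e-26). Both are also known p53 targets. Slc38a2, a carrier of neutral amino acids, had 248 ± 28.3 CPM in irradiated dmPGE2 HSC and 552 ± 48.4 CPM in irradiated vehicle HSC (SD, n = 8 each; log2 fold change -1.15, SE 0.10, adjusted p = 2.53e-13). Of the 24 tested genes linked to ATF4, 2 rose and 5 fell in this comparison, where 7.04% of all genes rose and 7.77% fell. With radiation and vehicle at 1 h, 6 rose and 1 fell, where 8.65% of all genes rose and 7.31% fell. Among the ER folding genes Txndc11, of the thioredoxin family, rose with dmPGE2 in irradiated HSC (log2 fold change 1.48, SE 0.15, adjusted p = 1.43e-11). It also rose without radiation, at 161 ± 48.1 CPM in dmPGE2-only HSC and 56.96 ± 10.4 CPM in untreated HSC (log2 fold change 1.5, SE 0.13, adjusted p = 6.18e-14). No tRNA synthetase was called for dmPGE2 or radiation with vehicle at 1 h, with log2 fold changes of -0.17 to 0.30 for dmPGE2 in irradiated HSC.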

How the data were processed

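RNA of sorted HSC was amplified with SMART-Seq v4 and made into Nextera XT libraries, per the labels' protocols. The submitters' processing notes name STAR 2.5.2b, featureCounts and Subread 1.5.1, and the mm10 build. Not given in the sources used here are the annotation, the treatment of multi-mapping reads and any use of strand. The authors deposited 1 table of raw read counts per gene for 54 libraries, with chromosome, start, end and exon length per gene.

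Counts were analysed with edgeR 4.0.16 (limma 3.58.1, R 4.3.3) in 1 fit of all 54 libraries over the 6 groups, with TMM factors, filterByExpr at a count minimum of 10, glmQLFit and glmQLFTest, leaving 48 residual degrees of freedom and a common dispersion of 0.121. An adjusted p is Benjamini-Hochberg over the 14320 genes kept. CPM uses the TMM library sizes, and its log2 a prior count of 3. The table repeats 2 gene names, neither of them a member. Total counts give the depth, and p-values measure the spread between libraries that the labels list as separate samples. DESeq2 1.42.0 was an alternative. The test of dmPGE2 by radiation is radiation with dmPGE2 against dmPGE2 alone, minus radiation with vehicle against untreated. Scripts were tested on simulated data.

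Tags in the column headers, shared across groups and separate from the library numbers used here, were taken as pairs at 1 h. Deviations from group means of same-tag libraries correlated at 0.12 or more in every pair of groups, with the first set of untreated columns. The lowest was 0.16 for irradiated dmPGE2 with irradiated vehicle HSC, where 4 of 8 libraries were closest to their own tag. Pairs of different tags had negative medians, but their highest values were 0.39 to 0.51. Libraries closest to their own tag ran from 3 of 8 (irradiated dmPGE2 with untreated HSC) to 7 of 7 (dmPGE2-only with untreated HSC). At 24 h the lowest was -0.00, 4 of 8 libraries were closest to their own tag, and the tags were not taken as pairs. In paired fits against untreated HSC, a tag could hold untreated columns of both sets. For the second set, same-tag correlations went down to 0.01 with irradiated vehicle HSC at 1 h, where 1 of 7 columns was closest to its own tag. Tag 5-1 joined untreated columns that were male by counts to treated libraries that were female. P-values of these paired fits may be too small.

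Members and lists were chosen with earlier results of these data known. Values in every group are given for members called with at least a 2-fold change in dmPGE2 or radiation comparisons and for the 2 most abundant of each role (21 in all), and up to 3 called genes per wider list and comparison could be named. Ddit3, Psat1, Mthfd2, Eif2ak3, Manf, Asns, Slc7a5 and the other members given values were chosen after their values were seen. Of the HSC markers listed, 1 is not reported here. Genes that share reads with near-identical copies could not be told apart. Promoter windows and their build are RefSeq's, and the protein sequences of members were not used here.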

Additional observations from a re-analysis of the deposited data

Results flagged for a closer look

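Pairs of gene and group were searched for single libraries far from the others, leaving out the untreated columns. A rate of 1 in 20, or about 5.25 pairs, holds only for normally distributed CPM and independent pairs, which was not tested. Single libraries stood far from the others of their group in 18 of 105 pairs tested. Of these, 8 lay in irradiated dmPGE2 HSC, and library 5 of that group at 24 h held several: Cebpb at 455 CPM, Xbp1 at 1040.5 CPM and Slc3a2 at 389 CPM, each the highest, and Calr at 816 CPM, the lowest. In the same group library 3 had the highest Slc7a11 at 6.51 CPM and library 7 the lowest Eif2ak4 at 19.8 CPM. At 1 h in irradiated dmPGE2 HSC, library 5 had the lowest Slc3a2 at 361 CPM and library 6 the highest Vldlr at 255 CPM. In dmPGE2-only HSC library 4 had the lowest Atf4 at 53.8 CPM.

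In irradiated vehicle HSC at 1 h, library 4 had the highest Hspa5 at 1807 CPM, Calr at 1351 CPM and Vldlr at 72.7 CPM. Library 3 had the highest Dnajb9 at 152 CPM and library 6 the highest Ern1 at 125 CPM. At 24 h in that treatment library 6 had the highest Trib3 at 48.98 CPM and Eif2ak4 at 65.7 CPM, and library 8 the highest Slc3a2 at 239.5 CPM and Atf6 at 49.6 CPM.

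The test of dmPGE2 by radiation at 1 h passed for Cebpg (-0.52), Nupr1 (1.19), Trib3 (1.37), Dnajb9 (-0.69) and Herpud1 (-0.82), on the log2 scale. The response to dmPGE2 differed between 24 h and 1 h for Atf4 (0.44), Atf5 (1.75), Cebpg (0.83), Nupr1 (0.79), Phgdh (-0.62), Slc3a2 (-0.37), Dnajb9 (1.76), Herpud1 (1.34) and Sdf2l1 (-1.11), positive values being a more positive response at 24 h. Without libraries 5 to 7 this was 0.40, adjusted p = 0.117, for Atf4, 0.32, adjusted p = 0.485, for Nupr1 and -0.68, adjusted p = 0.0533, for Sdf2l1. Without libraries 3 and 5 to 7 these 3 were also not called, nor were Phgdh (-0.34, adjusted p = 0.0656) and Atf5 (1.44, adjusted p = 0.0587). Atf4 was also not called without the libraries of high plasma cell markers (0.42, adjusted p = 0.0659). For dmPGE2 by radiation, Dnajb9, Cebpg and Nupr1 were not called with the 8-column baseline, and Trib3, Cebpg and Nupr1 not without the libraries of high plasma cell markers.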

How the results depend on the processing

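The tests called 9 members for dmPGE2 in irradiated HSC at 1 h and 15 at 24 h, 11 and 25 for radiation with vehicle at 1 h and 24 h, 11 for dmPGE2 alone, 13 and 19 for radiation with dmPGE2 against untreated at 1 h and 24 h, 0 for radiation under dmPGE2, 24 and 16 for 24 h against 1 h with vehicle and with dmPGE2, 5 for dmPGE2 by radiation and 15 for the response at 24 h minus 1 h. Tested against a fold change of 1.5, these counts were 5 and 1, 4 and 6, 3, 5 and 2, 0, 9 and 3, 0 and 3 in the same order. With only the groups compared in the fit, dmPGE2 at 24 h called 9, radiation under dmPGE2 called 1 (Xbp1, 0.48, adjusted p = 0.0422) and 24 h against 1 h with dmPGE2 called 10. Without libraries 5 to 7 dmPGE2 at 24 h called 8, and without libraries 3 and 5 to 7 it called 6, the response difference 8, and Slc7a11 turned to -0.15, adjusted p = 0.929. With the replicate block, dmPGE2 at 24 h called 8 and radiation under dmPGE2 called 1 (Ppp1r15a), where the 24 h block used tags that both groups carry but that did not pass the pairing check. The causes of these shifts were not tested, and the shares of all genes called under these settings were not counted.

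Alternatives chosen after seeing the data gave 2 calls for dmPGE2 by radiation with the 8-column baseline, 2 without the libraries of high plasma cell markers, and 12 for radiation with dmPGE2 at 24 h with the 7-column baseline. Leaving out 1 library at a time gave 9 to 16 calls for dmPGE2 at 24 h, with 9 without library 5, and 0 to 1 for radiation under dmPGE2.

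In the main dmPGE2 and radiation comparisons, the 21 members given values in every group had 51 calls. Each call was checked under every setting that applied to it. Of 568 such checks, other than leaving out 1 library, 493 kept the call, 74 lost it and 1 reversed. The test against a fold change of 1.5 kept 17 of the 51 calls. Leaving out 1 library kept the call in 1010 of 1030 checks, and 7 of the 51 calls were lost at least once. The alternatives chosen after seeing the data, which are counted within the 568, kept 125 of 138 checks. DESeq2 and RLE factors each kept 51 of 51. Slc7a11, Chac1 and Atf5 rest on few reads, which limits their precision.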
